A study of Rattus norvegicus with 105 samples.

Results

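The genes described here are a set of hepatocyte identity and secreted carrier genes, chosen by name: Alb, Ttr, Tf, Apoa1, Apob, Hnf4a, Cebpa and Serpina1. A probe belonged to the set when its identifier, without the number at its end, was one of these 8 symbols. Of 20946 genes with a probe, 7 were found this way, each with 1 probe, and Apob is not analysed here. Gene expression had been measured with TempO-Seq, in which pairs of detector oligonucleotides are joined on each target RNA, amplified and counted. The cells were primary hepatocytes of female Sprague-Dawley rats, a single commercial lot on collagen in 96-well plates, in a medium that held serum and an insulin-transferrin-selenium supplement in all groups.

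There were 35 groups with n = 3 libraries per group, and every exposure lasted 24 hours. The tested compounds were 3 nitroalkanes whose carbon chain lengthens by 1 from each to the next: nitromethane (NM), then nitroethane (NE), then 1-nitropropane (1NP). Each was given at 8 concentrations about evenly spaced on a log scale, the lowest 0.003 mM and the highest 10 mM. The reference compounds were benzo[a]pyrene (BaP) at 50 µM, an aryl hydrocarbon receptor agonist, CITCO at 10 and 20 µM, an activator of human CAR, rifampin at 20 and 40 µM, an activator of human PXR, and WY-14643, a PPARα agonist. The controls were wells with the vehicle DMSO and wells with medium alone. Titles, protocol and library names disagree on the amount of DMSO, so none is given. The protocol names a human probe panel, whereas probes carry rat gene symbols. NM, NE and the reference compounds made up set 1 (24 groups, 72 libraries), with a DMSO and a medium group of their own. 1NP and a further WY-14643 group made up set 2 (11 groups, 33 libraries), again with their own DMSO and medium groups. WY-14643 was titled 50 µM in both sets, while the library names of set 2 read 100. Whether DMSO was present in the nitroalkane wells is not stated, and every treated group was therefore set against both controls. The wells of a group shared a plate row. Medium lay in row A, DMSO in row B, and the nitroalkane concentrations in rows A (0.003 mM) to H (10 mM). BaP lay in row C, CITCO at 10 and 20 µM in rows D and G, and rifampin at 20 and 40 µM in rows E and H. WY-14643 lay in row F in set 1 and row C in set 2. Concentration and row can therefore not be told apart, nor can vehicle and row between the controls.

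Hepatocytes are defined by a network of transcription factors that sustain each other and that switch on the genes of plasma proteins. Hnf4a, a nuclear receptor, and Cebpa, a leucine zipper factor, are central members of this network. Among the secreted products are Alb (albumin, the main carrier of fatty acids and drugs in plasma), Ttr (transthyretin, carrier of thyroid hormone and partner of retinol-binding protein), Tf (transferrin, the iron carrier), Apoa1 (the main protein of high density lipoprotein) and Serpina1 (α1-antitrypsin, an inhibitor of neutrophil elastase). Hepatocytes in culture are known to lose part of this programme with time.

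Promoters are shown for a pair of carriers and for Cebpa, because their levels took different courses in the results that follow. RefSeq entries of build GRCr8 were found for 6 of the 8 genes, with 7 start sites in all. The 250 bases before the start site are printed 5′ to 3′ for Alb (chr14:17906980-17907229, minus strand), Tf (chr8:112695377-112695626, minus strand) and Cebpa (chr1:96896334-96896583, plus strand), with capitals marking matches to any of 5 motifs on either strand.
Alb: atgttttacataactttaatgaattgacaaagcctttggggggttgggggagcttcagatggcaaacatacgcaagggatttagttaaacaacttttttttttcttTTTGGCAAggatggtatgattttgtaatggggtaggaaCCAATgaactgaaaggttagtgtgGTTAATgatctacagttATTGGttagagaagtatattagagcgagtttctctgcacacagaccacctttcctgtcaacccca
Tf: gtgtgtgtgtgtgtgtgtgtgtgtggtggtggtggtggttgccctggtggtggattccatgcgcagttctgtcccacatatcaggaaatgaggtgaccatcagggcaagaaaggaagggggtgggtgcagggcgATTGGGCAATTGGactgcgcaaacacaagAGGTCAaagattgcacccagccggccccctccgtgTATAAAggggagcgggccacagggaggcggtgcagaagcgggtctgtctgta
Cebpa: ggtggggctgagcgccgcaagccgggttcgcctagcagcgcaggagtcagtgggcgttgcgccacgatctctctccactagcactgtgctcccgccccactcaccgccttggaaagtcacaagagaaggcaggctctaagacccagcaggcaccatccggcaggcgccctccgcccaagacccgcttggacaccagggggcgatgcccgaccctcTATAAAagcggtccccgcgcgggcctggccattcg
The motifs were GTTAAT (an HNF1 half-site), AGGTCA (a nuclear receptor half-site), CCAAT, TTGCNNAA (a C/EBP core) and TATAAA. Of the 33469 rat promoter windows of the same length, 6.45% held GTTAAT, 14.1% AGGTCA, 34% CCAAT, 9.22% TTGCNNAA and 12.9% TATAAA. The Alb window had 4 matches: a C/EBP core on the opposite strand, a CCAAT box on each strand and an HNF1 half-site between those boxes. The Tf window had 5 matches, with a C/EBP core that overlapped a CCAAT box at each of its ends, all on the opposite strand, followed by a nuclear receptor half-site and a TATA box. The Cebpa window held a TATA box and no other match. No match was found for Ttr or Serpina1, and the second Hnf4a start site had a pair of HNF1 half-sites on the opposite strand. These are letters in a window and were not tested as binding sites.

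The depth of a library was between 5475419 and 11122665 counts, with 8680678 as the median, and the 7 probes took 0.605 to 1.54% of them. Levels are counts scaled to a common library total (CPM), and levels of different genes are not compared because each probe has its own efficiency. There were 6 libraries that stood apart from the others of their group: NE 10 mM replicate 2, NE 0.01 mM replicate 3, NM 10 mM replicate 3, NM 3 mM replicate 1, NM 1 mM replicate 1 and 1NP 10 mM replicate 3. In NE 10 mM replicate 2, 21627 probes had a count, against 13477 and 13515 in the other wells of its group, and the highest sums of the endothelial, lymphocyte and erythroid lists were in this group (12.5, 6.79 and 4.53 CPM). Of the hepatocyte markers, Asgr1 and Cyp2e1 had medians of only 6.25 and 2.32 CPM. All 8 endothelial, 6 lymphocyte and 2 erythroid probes had medians at or under the floor of 3 counts. Among stellate cell markers Tagln was high, while Col1a1, Col3a1, Des, Pdgfrb, Dcn and Lum had medians of 0, and among cholangiocyte markers Sox9 was high and Krt7 had a median of 0. In wells of many cells, fewer cells of a type and less RNA per cell cannot be told apart.

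The controls were compared first, since every other comparison rests on them. In both sets most of the 7 genes were higher in DMSO wells than in medium wells. DMSO lay in row B and medium in row A in both sets, so vehicle and row cannot be told apart here. In set 1 6 of 7 genes were called higher by edgeR, all but Ttr, where 3.88% of all 12102 probes were called higher. In set 2 Alb, Tf, Apoa1, Cebpa and Serpina1 rose, 5 of 7 genes, where 12.4% of all 11538 probes were called higher. A percentage beside a count of genes is the share of all probes called in the same direction as those genes, or in either direction where no gene was called. Changes are log2 differences from edgeR's quasi-likelihood test with Benjamini-Hochberg adjustment over all probes kept, and a gene is called at an adjusted p under 0.05.

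Serpina1 had 665.7, 611.4 and 662.1 CPM in DMSO wells of set 2, against 241.9, 152.2 and 173.2 CPM in medium wells. All DMSO wells were above all medium wells by a wide gap. The log2 difference was 1.88 ± 0.14 (SE; adjusted p = 8.12e-08). In set 1 it had 694.7, 556.4 and 479.4 CPM in DMSO wells, against 317.9, 306.8 and 238 CPM in medium wells, again with no overlap (1.05 ± 0.24, adjusted p = 0.0105). The difference in set 2 exceeded that in set 1 by 0.82 ± 0.34 (adjusted p = 0.584), and edgeR called none of the 7 genes for a difference between the sets (0% of all probes were called, and 1 of 7 genes had an unadjusted p under 0.05).

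Tf had 1858, 1884 and 1425 CPM in DMSO wells of set 1, against 1196, 1022 and 853.5 CPM in medium wells (0.79 ± 0.17, adjusted p = 0.006). In set 2 it had 2020, 1952 and 2078 CPM in DMSO wells, against 1054, 869.3 and 1378 CPM in medium wells (0.96 ± 0.16, adjusted p = 0.00032). Every DMSO well stood above every medium well of its set. Alb averaged 3604 ± 261 CPM in DMSO wells and 2346 ± 322 CPM in medium wells of set 1 (SD, n = 3 each; log2 difference 0.66, adjusted p = 0.00127), and its difference in set 2 was 0.76 (adjusted p = 0.00115). Apoa1 differed by 0.70 in set 1 and 0.79 in set 2 (adjusted p = 0.00158 and 0.00103).

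The transcription factors and Ttr differed less evenly. Cebpa had 33.39, 31.1 and 35.91 CPM in DMSO wells, against 19.14, 22.17 and 19.93 CPM in medium wells of set 1, with no overlap (0.76 ± 0.13, adjusted p = 0.000321). In set 2 it differed by 0.43 ± 0.16 (adjusted p = 0.0481), a call that was lost without DMSO set 2 replicate 4 or 5 or medium set 2 replicate 4 or 5 (adjusted p = 0.209, 0.133, 0.0627 and 0.0974), without the low count filter (0.068), with library totals alone (0.13), with the replicate block (0.0584), with the 2 groups alone (0.0857) and with all libraries in 1 fit (0.236). Hnf4a differed by 0.34 in set 1 (adjusted p = 0.0316) and by -0.03 in set 2 (adjusted p = 0.91). Its set 1 call was lost without DMSO set 1 replicate 2 or 3 (adjusted p = 0.138 and 0.113). The same held without medium set 1 replicate 1, 2 or 3 (0.0975, 0.127 and 0.0512), with library totals alone (0.0825) and with all libraries in 1 fit (0.444). Ttr had 3248, 3234 and 3636 CPM in DMSO wells, against 2801, 2987 and 2662 CPM in medium wells of set 1, higher without overlap. Its differences were 0.30 in set 1 and 0.09 in set 2 (adjusted p = 0.0523 and 0.744), and edgeR called it in neither set. In set 1 DESeq2 called it (adjusted p = 0.0483), as did edgeR with the replicate block (0.0424), without the low count filter (0.0126) and with the 2 groups alone (0.00444).

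**Figure D1:**
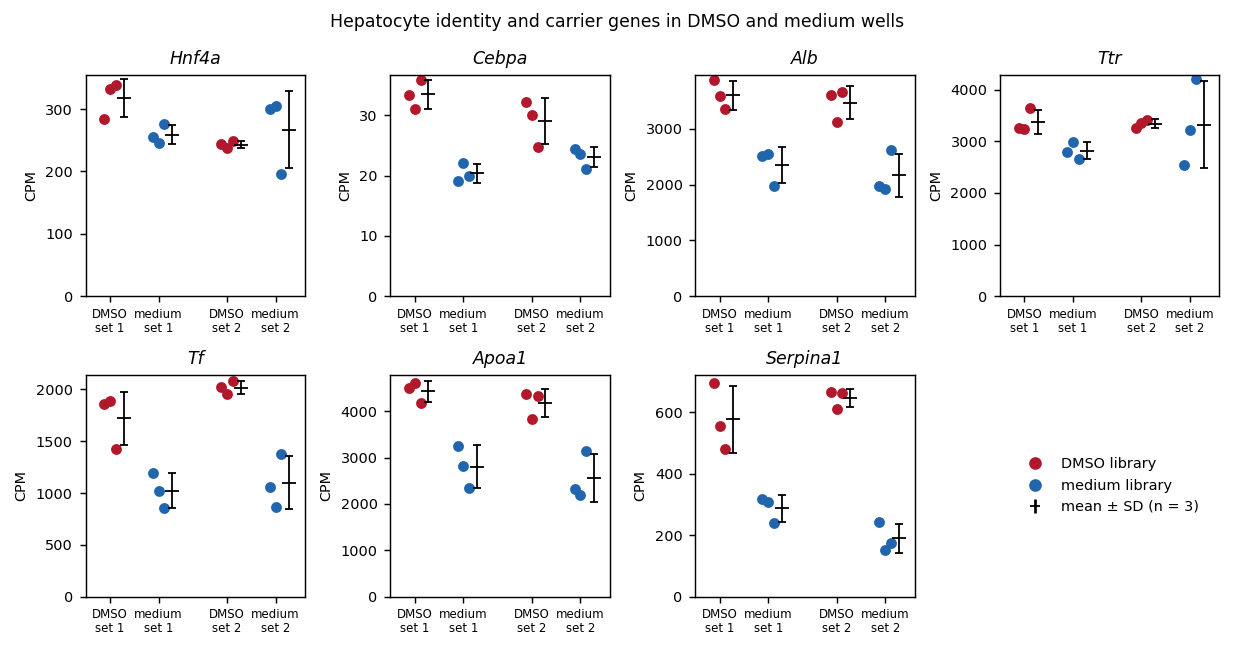
Levels of the 7 genes (CPM) in each DMSO and medium library of both sets, with the mean and SD of 3 libraries. DMSO wells stand above medium wells without overlap for Alb, Tf, Apoa1, Cebpa and Serpina1 in both sets, while Hnf4a and Ttr overlap in set 2.

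Other genes of the secreted programme moved the same way between the controls. Of 13 probes for serpins and protease inhibitors, 9 were higher in DMSO wells of set 1 and 0 lower (median log2 difference 0.76, against -0.01 over all probes, of which 3.88% were called higher), and in set 2 8 were higher and 0 lower (median 0.76, 12.4% of all probes called higher). Rbp4, the retinol carrier that binds Ttr, rose to 2350 ± 327 CPM in DMSO wells, against 857 ± 250 CPM in medium wells of set 1 (adjusted p = 0.000325). Lipc, hepatic lipase, differed the other way, by -0.50 (adjusted p = 0.000961). Krt19, a keratin of bile duct cells, differed by -1.40 in set 1 and -1.71 in set 2 (adjusted p = 0.000528 and 1.9e-06). Epcam, of the same cholangiocyte list, was higher in DMSO wells of set 2, at 251 ± 23 CPM against 145 ± 42 CPM in medium wells (adjusted p = 0.000996). Tagln, a gene of smooth muscle and stellate cells, differed by -1.26 and -1.45 (adjusted p = 0.0027 and 6.11e-05), and like Krt19 it was lower in DMSO wells of both sets. The stellate list had 11 probes, 8 of them with a median over all libraries at or under the floor. It summed to 204 to 254 CPM in DMSO wells and 425 to 825 CPM in medium wells of set 1. Its part in the differences was not tested.

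At the 6 concentrations from 0.003 to 1 mM most carriers lay below DMSO with all 3 nitroalkanes, and edgeR called none of the genes against medium. With NM the number of the 7 genes lower than DMSO was 4, 2, 5, 5, 6 and 5 in order of concentration, where 2.25%, 0.489%, 1.04%, 1.2%, 1.73% and 1.2% of all probes were called lower. With NE it was 3, 2, 1, 6, 6 and 6 (1.8%, 1.05%, 1.48%, 2.03%, 3.37% and 1.59% of probes). With 1NP it was 4, 1, 4, 4, 3 and 3 (8.88%, 0.115%, 0.37%, 1.74%, 0.452% and 0.378% of probes). None was higher. Carriers not wholly below the DMSO wells were Ttr with 1NP, which overlapped them in 3 groups, and Apoa1 with NE at 0.01 mM. Apoa1 there had 3064, 3288 and 5776 CPM, 1 well above every DMSO well and the others below. The well above is replicate 3, one of the libraries that stood apart. The calls lower than DMSO add up to 27, 24 and 19 calls of 42 tests each for NM, NE and 1NP. For NE the sum was 14 without DMSO set 1 replicate 2, and for 1NP 12 without DMSO set 2 replicate 4.

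Against medium edgeR called 0 of 42 tests with each compound, and an unadjusted p under 0.05 was seen in 7 (NM), 6 (NE) and 5 (1NP) of them. DESeq2 called 0, 0 and 1. Some groups nevertheless lay outside the range of the medium wells. Serpina1 had 267.4, 374.2 and 395.5 CPM in 1NP 0.01 mM wells and 263.6, 290.5 and 369 CPM in 1NP 0.3 mM wells, above every medium well of set 2 (0.92 and 0.71, adjusted p = 0.119 and 0.189). Apoa1 had 1850, 2051 and 1592 CPM in NE 0.3 mM wells, below every medium well of set 1 (-0.67, adjusted p = 0.338). Few probes of any kind were called against medium: 0%, 0.0163%, 0%, 0%, 0% and 0.00816% with NM, 0%, 0.0566%, 0%, 0%, 0.0243% and 0.267% with NE, and 0.00822%, 0.436%, 0%, 0%, 0% and 0.0411% with 1NP. Without medium set 2 replicate 6 or replicate 4 the 1NP sum was 3 or 1.

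Tf shows the pattern at the lowest concentration. It had 942.6, 882.2 and 990.7 CPM in NM 0.003 mM wells, 936.8, 1058 and 1113 CPM in NE 0.003 mM wells and 761.6, 842.7 and 1010 CPM in 1NP 0.003 mM wells. All are below every DMSO well of their set and within or just below the range of the medium wells. The log2 changes against DMSO were -0.92, -0.79 and -1.30 (adjusted p = 8.3e-05, 0.00318 and 8.79e-06). Over the 6 low concentrations Tf was called lower than DMSO in 6 NM groups, 5 NE groups and 6 1NP groups. Against medium its changes ran from -0.35 to 0.28.

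Serpina1 was called lower than DMSO in 6, 5 and 4 of the 6 low groups of NM, NE and 1NP, Alb in 5, 4 and 4, and Apoa1 in 5, 3 and 5. Ttr was called lower in 4, 3 and 0, Hnf4a in 0, 4 and 0, and Cebpa in 1, 0 and 0. The 0.01 mM wells lay in row B, the row of the DMSO wells, and 2 genes with NM, 2 with NE and 1 with 1NP were lower than DMSO there, the fewest of the 6 low groups for NM and 1NP; the part of the row was not tested. Tf was among them with each compound: -0.74 with NM, -0.69 with NE and -0.74 with 1NP (adjusted p = 0.00276, 0.0141 and 0.0232).

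**Figure D2:**
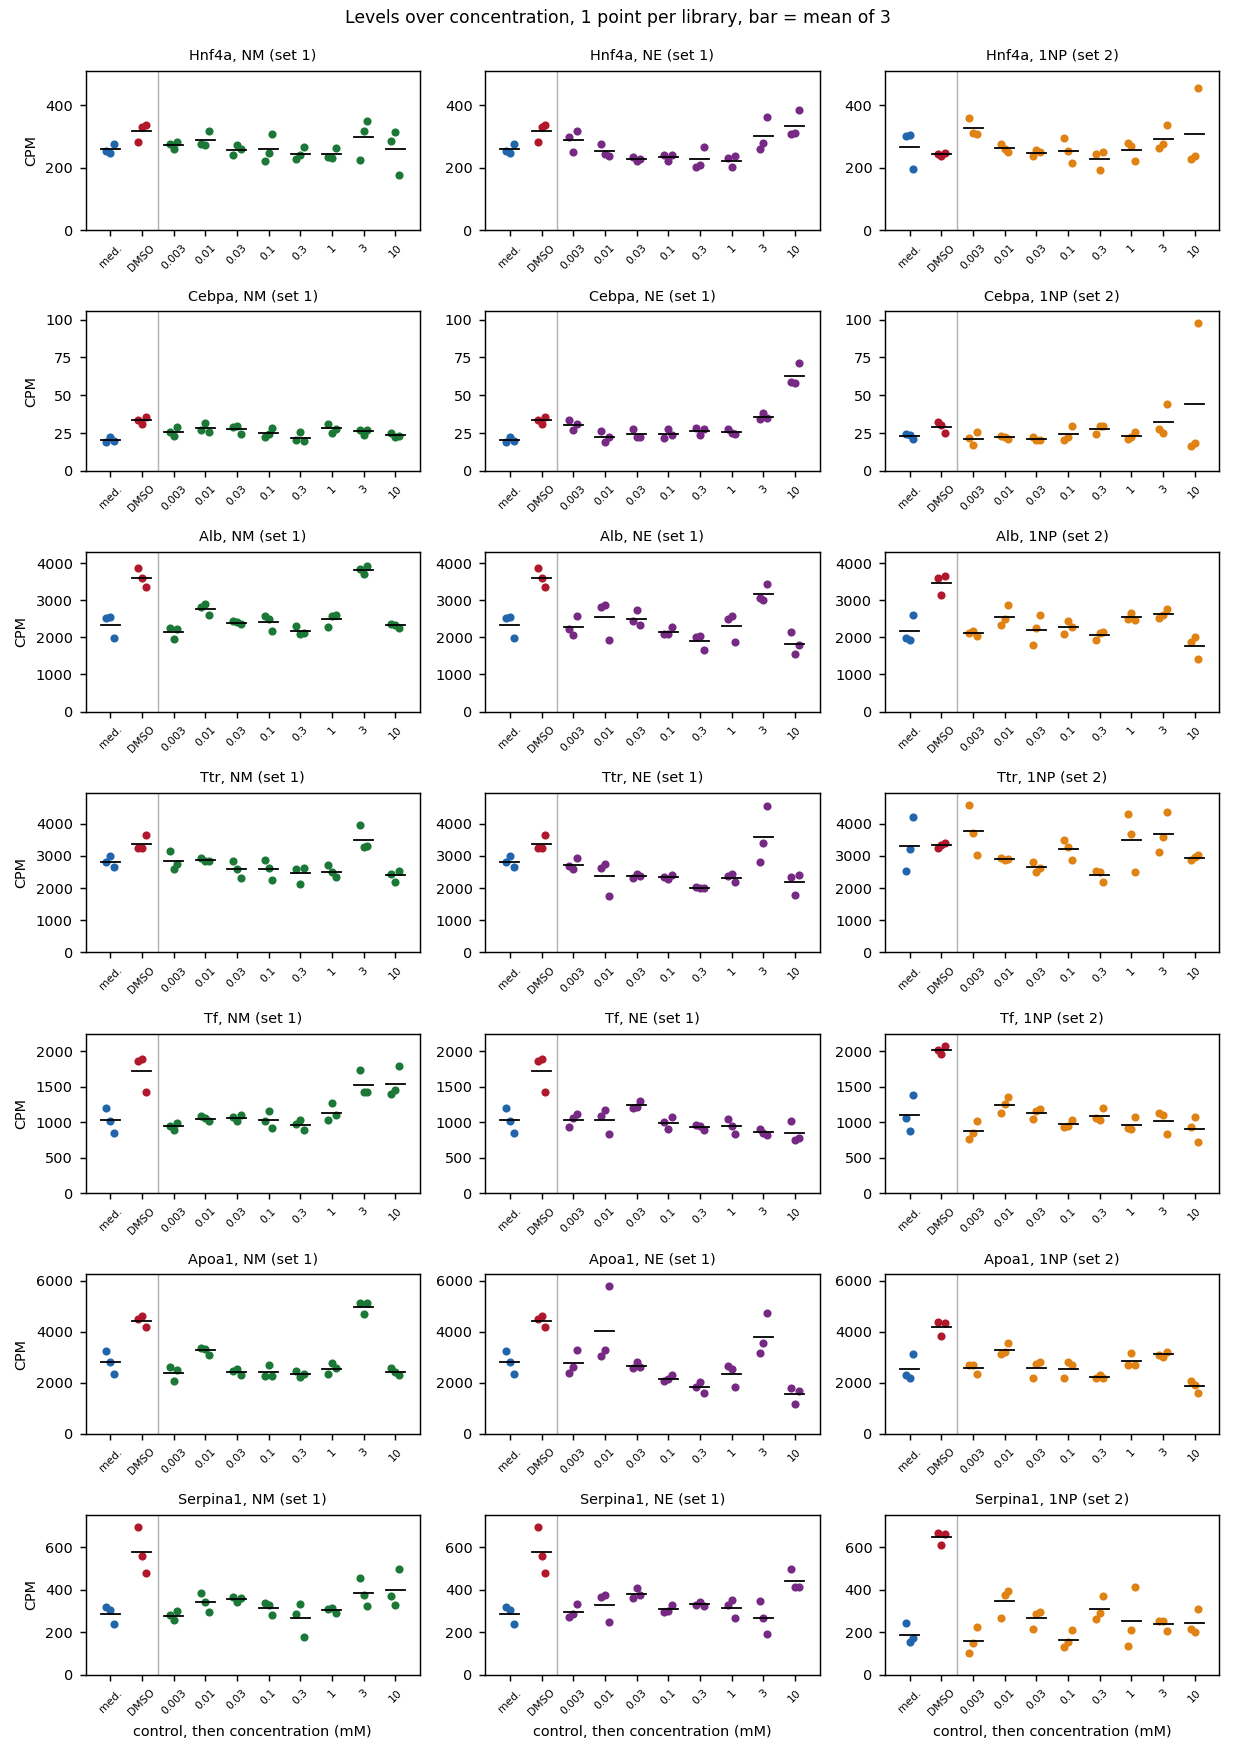
Levels of each gene (CPM) in every library of the controls and of the 8 concentrations (mM) of each nitroalkane. Most carriers at 0.003 to 1 mM lie below DMSO, NM at 3 mM lies near DMSO for Alb and Apoa1, and Cebpa has its highest mean with NE at 10 mM, while 1 of the 3 wells of 1NP at 10 mM is higher still.

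Cebpa, a factor that restrains hepatocyte division, rose with NE. It had 58.8, 58.32 and 71.24 CPM in NE 10 mM wells, against 33.39, 31.1 and 35.91 CPM in DMSO wells and 19.14, 22.17 and 19.93 CPM in medium wells. All NE wells lay above all control wells. The log2 change was 0.87 ± 0.16 against DMSO (adjusted p = 0.000101) and 1.63 ± 0.16 against medium (adjusted p = 4.35e-09). At 3 mM NE it had 34.61, 38.32 and 34.62 CPM, overlapping DMSO (0.13, adjusted p = 0.713) and above every medium well (0.89 ± 0.16, adjusted p = 0.000281). Over the 8 NE concentrations, with no control in the fit, Cebpa had a slope of 0.14 ± 0.03 log2 per concentration step (adjusted p = 0.00174, with 26.1% of probes called). The rise was not even over the steps. Means from 0.003 to 1 mM lay between 22.5 and 30.46 CPM, the highest of them at 0.003 mM, with 35.85 CPM at 3 mM and 62.79 CPM at 10 mM.

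With NM at 10 mM Cebpa was called lower than DMSO. It had 25.18, 22.59 and 23.3 CPM in NM 10 mM wells, below all DMSO wells (-0.59 ± 0.13, adjusted p = 0.00529) and just above all medium wells (0.17 ± 0.13, adjusted p = 0.491). The call against DMSO was lost with the 2 groups alone (adjusted p = 0.241) and with all libraries in 1 fit (0.116). Over the 8 NM concentrations the slope of Cebpa was -0.02 ± 0.02 log2 per step (adjusted p = 0.328). With 1NP at 10 mM the wells disagreed, at 16.46, 18.46 and 97.61 CPM, against 32.14, 30.08 and 24.8 CPM in DMSO wells and 24.4, 23.52 and 21.18 CPM in medium wells. The last 1NP well is replicate 3, one of the libraries that stood apart, and the others were below both controls. The change was 0.62 ± 0.41 against DMSO (adjusted p = 0.564), and -0.79 without that library (adjusted p = 0.0281). Against medium it was 1.05 ± 0.42 (adjusted p = 0.0911). The stellate list summed to 39.4 to 835 CPM over these 1NP wells; its part was not tested.

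Hnf4a changed little. It had 308.3, 310.2 and 386 CPM in NE 10 mM wells, against 283.6, 332 and 338.1 CPM in DMSO wells and 254.9, 245.8 and 275.8 CPM in medium wells. NE wells overlapped DMSO (0.04, adjusted p = 0.868) and lay above all medium wells (0.38 ± 0.14, adjusted p = 0.0331). That call was lost without NE 10 mM replicate 1 (adjusted p = 0.069) or replicate 3 (0.21, adjusted p = 0.269), and without any 1 of the 3 medium wells (adjusted p = 0.0899, 0.121 and 0.0533). NM and 1NP at 10 mM gave 259.1 ± 71.7 and 307 ± 128 CPM, with no call against either control.

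The carriers fell below DMSO at 10 mM with all 3 nitroalkanes, with exceptions by gene. With NM 5 of 7 genes were lower than DMSO (3.47% of all probes called) and 0 were called against medium (0.767%). With NE 4 were lower than DMSO (15.8%) and 1 was higher (14.6%), while 3 were higher (17.2%) and 1 lower than medium (18%). With 1NP 4 were lower than DMSO (0.888%) and 0 were called against medium (13.3%). Where edgeR called none, against medium, 4 of 7 genes with NM and 2 of 7 with 1NP had an unadjusted p under 0.05, and DESeq2 called 1 and 2. With only 1NP 10 mM and DMSO in the fit 0 genes were called, and the NE count against medium was 2 without medium set 1 replicate 1 and 2 without replicate 3.

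Alb had 2147, 1556 and 1792 CPM in NE 10 mM wells, 2356, 2338 and 2265 CPM in NM 10 mM wells and 1871, 2021 and 1422 CPM in 1NP 10 mM wells. DMSO wells had 3870, 3592 and 3349 CPM in set 1 and 3609, 3130 and 3662 CPM in set 2, above all these treated wells. Medium wells had 2514, 2548 and 1974 CPM in set 1 and 1971, 1921 and 2615 CPM in set 2, a range that each 10 mM group overlapped. The changes against DMSO were -1.01 with NE and -0.73 with NM (adjusted p = 4.91e-05 and 8.14e-05), and with 1NP, where the means were 1771 ± 312 CPM in treated wells and 3467 ± 293 CPM in DMSO wells (SD, n = 3 each), the adjusted p was 9.94e-05. Against medium they were -0.34, -0.07 and -0.25 (adjusted p = 0.122, 0.74 and 0.242).

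Ttr averaged 2178 ± 340 CPM in NE 10 mM wells and 2392 ± 172 CPM in NM 10 mM wells, against 3373 ± 228 CPM in DMSO wells of set 1, changes of -0.66 and -0.59 (adjusted p = 0.00212 and 0.000594). In 1NP 10 mM wells it had 2948 ± 78.8 CPM, against 3337 ± 83.8 CPM in DMSO wells of set 2 (-0.21, adjusted p = 0.712). It was called against medium in 1 of 31 treated groups, CITCO at 20 µM (0.33, adjusted p = 0.0167).

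Tf separated the compounds. It had 1009, 749.9 and 773.4 CPM in NE 10 mM wells, 937.7, 1068 and 723.3 CPM in 1NP 10 mM wells and 1390, 1447 and 1784 CPM in NM 10 mM wells. Wells of NE and 1NP lay in or below the medium range, while all NM wells lay above every medium well and overlapped DMSO. The change against DMSO was -1.06 ± 0.16 with NE, -1.18 ± 0.16 with 1NP and -0.26 ± 0.13 with NM (adjusted p = 8.42e-06, 2.66e-05 and 0.232). Against medium NM gave 0.53 ± 0.13 with adjusted p = 0.051, and 0.0153 by DESeq2. Tf had a slope of 0.09 ± 0.02 log2 per concentration step with NM (adjusted p = 0.00166, with 9.88% of probes called). Its NM means lay between 938.5 and 1133 CPM from 0.003 to 1 mM, with 1527 CPM at 3 mM and 1540 CPM at 10 mM. The Tf slope was -0.06 ± 0.02 with NE (adjusted p = 0.0222) and -0.02 ± 0.02 with 1NP (adjusted p = 0.657, with 4.77% of probes called).

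Apoa1 fell furthest with NE. It had 1802, 1181 and 1691 CPM in NE 10 mM wells, against 4501, 4612 and 4173 CPM in DMSO wells and 3255, 2819 and 2335 CPM in medium wells, below both controls with no overlap. The changes were -1.53 ± 0.25 against DMSO (adjusted p = 2.91e-05) and -0.83 ± 0.25 against medium (adjusted p = 0.0102). The call against medium was lost without NE 10 mM replicate 2 (-0.61, adjusted p = 0.0677) and without medium set 1 replicate 1 (-0.71, adjusted p = 0.0547). NM and 1NP at 10 mM gave -0.95 and -1.19 against DMSO (adjusted p = 9.33e-06 and 1.02e-05), and -0.25 and -0.41 against medium (adjusted p = 0.304 and 0.0565).

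Serpina1 had 496.4, 410.5 and 411.2 CPM in NE 10 mM wells, against 317.9, 306.8 and 238 CPM in medium wells, higher without overlap (0.62 ± 0.18, adjusted p = 0.00923). This call was lost without medium set 1 replicate 3 (0.49, adjusted p = 0.0757) and without NE 10 mM replicate 1 (0.45, adjusted p = 0.0878). Serpina1 in the NE wells overlapped the DMSO wells (-0.43 ± 0.18, adjusted p = 0.0735). In 1NP 10 mM wells it had 212.9, 202.2 and 309.2 CPM, below all DMSO wells of set 2 (-1.44 ± 0.31, adjusted p = 0.0128) and overlapping medium. NM at 10 mM gave -0.64 ± 0.18 against DMSO (adjusted p = 0.0299), with 1 treated well inside the DMSO range. That call was lost without DMSO set 1 replicate 1 or 2 or NM 10 mM replicate 1 or 2 (adjusted p = 0.177, 0.0612, 0.0627 and 0.0992), with library totals alone (0.0737), with the 2 groups alone (0.267) and with all libraries in 1 fit (0.0701).

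NM at 3 mM differed from its neighbours in concentration by its calls, with 3 of 7 genes higher than medium (2.16% of all probes called). The 3 mM wells lay in row G, as did CITCO at 20 µM. By mean level in set 1, NM at 3 mM, CITCO at 20 µM and NE at 3 mM ranked 1, 3 and 5 of 24 groups for Alb. They ranked 3, 2 and 1 for Ttr, 1, 8 and 4 for Apoa1, and 5, 2 and 23 for Tf. The part of the row was not tested. Against DMSO edgeR called 0 of 7 with NM at 3 mM (0.873% of probes), 2 of 7 had an unadjusted p under 0.05, and DESeq2 called 0. Apoa1 had 5131, 4685 and 5110 CPM in NM 3 mM wells, above every medium well and every DMSO well, with a change of 0.82 ± 0.12 against medium (adjusted p = 0.000165). Alb had 3835, 3700 and 3934 CPM (0.70 ± 0.11, adjusted p = 0.000386) and Tf 1736, 1427 and 1419 CPM (0.57 ± 0.13, adjusted p = 0.0168), both overlapping DMSO and above all medium wells. The Tf call was lost without medium set 1 replicate 2 or 3 (adjusted p = 0.0562 and 0.151). It was also lost without NM 3 mM replicate 1 (0.0744), one of the libraries that stood apart. With only NM 3 mM and medium in the fit 0 genes were called. The slopes of Alb and Apoa1 over the 8 NM concentrations were 0.04 and 0.05 log2 per step (adjusted p = 0.221 and 0.255).

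NE at 3 mM was higher than medium in 2 of 7 genes (6.64% of probes), Cebpa as given above and Alb, with 3068, 3007 and 3444 CPM above all medium wells (0.51 ± 0.17, adjusted p = 0.0457). The Alb call was lost when any 1 of the 6 libraries was left out (adjusted p from 0.0665 to 0.249) and without the low count filter (0.0635). NE at 3 mM was lower than DMSO in 2 of 7 (3.23%), Tf (-0.98, adjusted p = 0.000217) and Serpina1 (-1.08, adjusted p = 0.000352). 1NP at 3 mM was lower than DMSO in 2 of 7 (0.222%), again Tf (-1.01, adjusted p = 0.00121) and Serpina1 (-1.46, adjusted p = 0.0287), and in 1 gene when any 1 of the 6 libraries was left out. Against medium edgeR called 0 of 7 with 1NP at 3 mM (0.362%), 2 of 7 had an unadjusted p under 0.05, and DESeq2 called 0; without medium set 2 replicate 6 edgeR called 2.

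**Figure D3:**
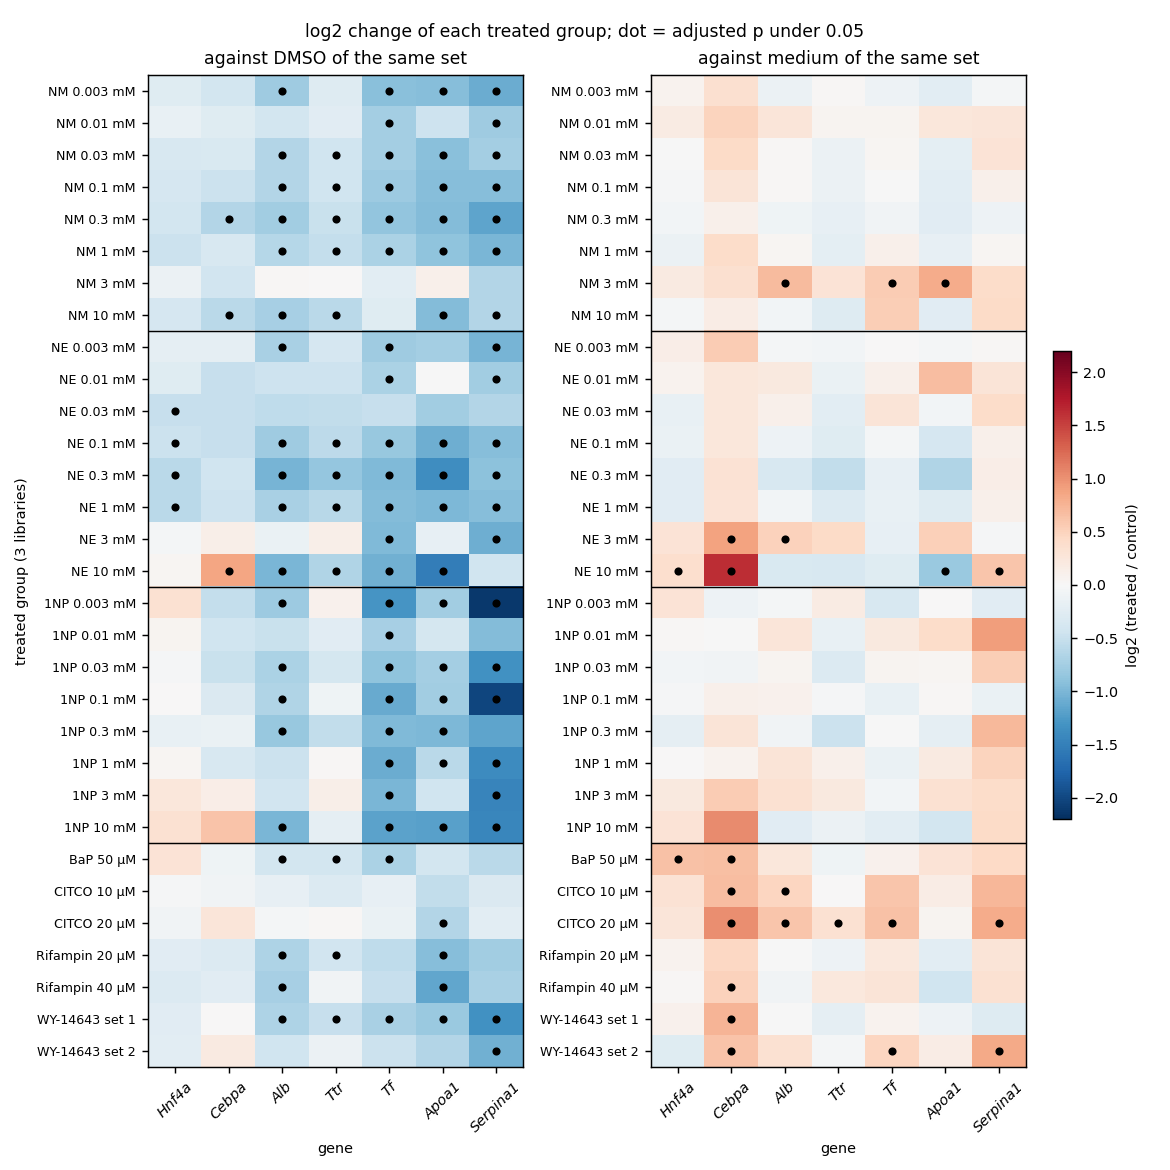
Log2 change of each gene in all 31 treated groups against the DMSO wells and the medium wells of the same set; a mark on a cell stands for an adjusted p under 0.05. Calls against DMSO are mostly lower and calls against medium mostly higher in the treated group, with Cebpa called in 8 of 31 groups against medium.

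Over all 31 treated groups, Tf was called lower than DMSO in 23, Serpina1 in 21, Alb in 20, Apoa1 in 20, Ttr in 12, Hnf4a in 4 and Cebpa in 2. The groups of a set share their control wells, so these counts are not independent. Higher than DMSO was Cebpa alone, in 1 group, NE at 10 mM. Against medium Cebpa was called higher in 8 groups, Alb in 4, Tf in 3, Serpina1 in 3, Hnf4a in 2, Ttr in 1 and Apoa1 in 1. The single lower call against medium by edgeR was Apoa1 with NE at 10 mM; DESeq2 also called Apoa1 lower with rifampin at 40 µM (-0.44, adjusted p = 0.0356) and with 1NP at 10 mM (-0.40, adjusted p = 0.0493).

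The nitroalkanes were compared with each other at matched concentrations in a fit of 84 libraries, with adjustment over all 12877 probes. NE and NM shared set 1 and were compared directly at 8 concentrations. 1NP was compared with each of them through the effects against their own controls, once with DMSO and once with medium, 32 comparisons in all. NE differed from NM in 1 of 7 genes at 3 mM (3.84% of probes called) and in 3 of 7 at 10 mM (32.4% of probes called).

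At 10 mM Cebpa was higher with NE, at 62.79 ± 7.33 CPM against 23.69 ± 1.34 CPM with NM, a log2 difference of 1.44 with a 95% interval of 0.91 to 1.98 (adjusted p = 2.64e-05). Tf was lower with NE, at 844.2 ± 144 CPM against 1540 ± 213 CPM with NM (-0.82, interval -1.12 to -0.52, adjusted p = 1.62e-05). It was lower at 3 mM too, at 855.4 ± 44.2 CPM with NE against 1527 ± 181 CPM with NM (-0.77, adjusted p = 0.00257). Apoa1 differed by -0.59 at 10 mM (adjusted p = 0.0119), and by -0.41 without the libraries that stood apart (adjusted p = 0.0636). The other genes were not called by edgeR, with intervals of -0.59 to 0.00 for Alb, -0.41 to 0.24 for Ttr, 0.05 to 0.75 for Hnf4a and -0.28 to 0.65 for Serpina1. DESeq2 called Hnf4a higher with NE (0.43, adjusted p = 0.0499), and edgeR called Alb lower with NE when scaled by library totals alone (-0.33, adjusted p = 0.0396).

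1NP and NE were not called different in any of the 7 genes at 10 mM by edgeR, with either control (5.6% of probes called with DMSO, 3.52% with medium). An unadjusted p under 0.05 was seen in 2 genes with DMSO and 0 with medium, and DESeq2 called 1 and 0. With DMSO as control Serpina1 changed by -1.45 with 1NP against -0.46 with NE, a difference of -0.99 with an interval of -1.65 to -0.33 (adjusted p = 0.0689). For Alb the interval was -0.39 to 0.44, for Tf -0.52 to 0.32 and for Cebpa -0.99 to 0.51. Without the libraries that stood apart, among them the 1NP well with 97.61 CPM of Cebpa, 2 genes were called with each control. With DMSO they were Cebpa (-1.79, adjusted p = 3.07e-08) and Serpina1 (-1.40, adjusted p = 0.00454). With medium they were Cebpa (-2.12, adjusted p = 6.59e-10) and Hnf4a (-0.66, adjusted p = 0.00673), all lower with 1NP. 1NP and NM differed in Tf alone at 10 mM, by -0.92 with DMSO and -0.76 with medium as control (adjusted p = 0.0312 and 0.0369; 0.303% and 3.38% of probes called). Without those libraries neither was called.

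**Figure D4:**
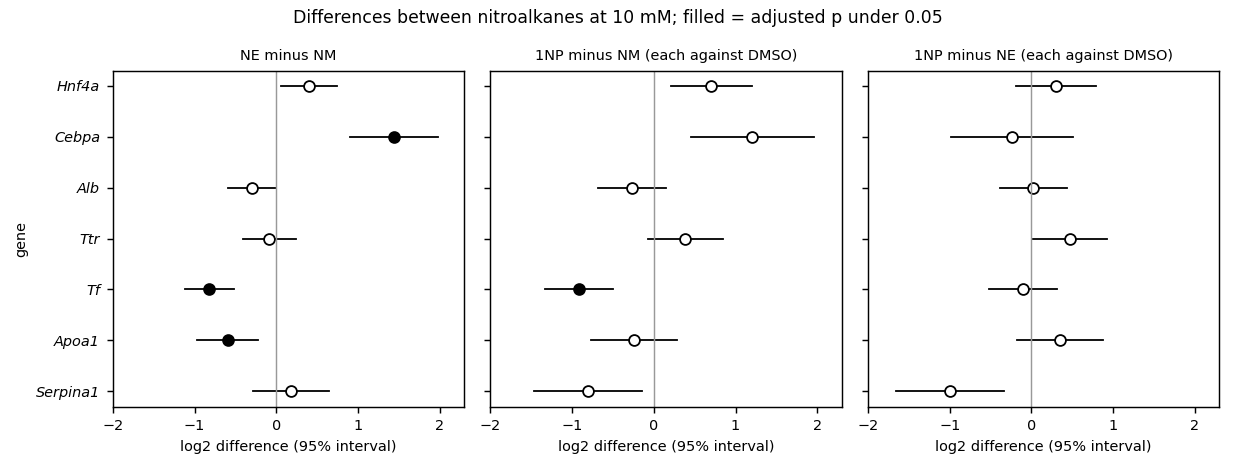
Differences between nitroalkanes at 10 mM for each gene, as log2 differences with 95% intervals. Cebpa, Tf and Apoa1 have an adjusted p under 0.05 between NE and NM, and Tf has one between 1NP and NM.

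With the reference compounds calls against DMSO were lower and calls against medium higher. The concentrations of CITCO, and those of rifampin, lay in different plate rows and columns, so concentration and position cannot be told apart. Lower than DMSO were 3 of 7 genes with BaP (5.07% of probes called), 0 with CITCO at 10 µM (0.149%) and 1 at 20 µM (0.471%), 3 with rifampin at 20 µM (1.77%) and 2 at 40 µM (1.14%), and 5 with WY-14643 in set 1 (2.54%) and 1 in set 2 (0.234%). In these fits none was called higher; with the replicate block, in a comparison where same-numbered wells deviated together, Hnf4a was called higher with BaP (0.30, adjusted p = 0.044). For CITCO at 10 µM, where edgeR called none, 2 of 7 had an unadjusted p under 0.05 and DESeq2 called 1. Higher than medium were 2 genes with BaP (9.3%), 2 and 5 with CITCO at 10 and 20 µM (1.83% and 7.33%), 0 and 1 with rifampin at 20 and 40 µM (0.273% and 1.43%), and 1 and 3 with WY-14643 in sets 1 and 2 (3.1% and 8.92%). For rifampin at 20 µM, where edgeR called none, 1 of 7 had an unadjusted p under 0.05 and DESeq2 called 0. With the replicate block Tf was called higher than medium with CITCO at 10 µM as well (0.63, adjusted p = 0.0272), and same-numbered wells deviated together in that comparison too. The WY-14643 count of set 2 was 7 without medium set 2 replicate 6 and 1 without WY-14643 set 2 replicate 5, and the CITCO 20 µM count against medium was 2 without its replicate 2 or without medium set 1 replicate 3.

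Serpina1 fell against DMSO with WY-14643 in both sets. It had 267.4, 235.4 and 238.4 CPM in WY-14643 wells of set 1, against 694.7, 556.4 and 479.4 CPM in DMSO wells (-1.34 ± 0.24, adjusted p = 0.00294). In set 2 it had 290.1, 361.3 and 299.2 CPM in WY-14643 wells, against 665.7, 611.4 and 662.1 CPM in DMSO wells (-1.05 ± 0.14, adjusted p = 0.000159). The wells did not overlap in either set. Against medium the change was -0.29 in set 1 (adjusted p = 0.571) and 0.83 in set 2 (adjusted p = 0.000537); the difference between sets was not tested.

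Apoa1 was the gene called lower than DMSO with CITCO at 20 µM, with 2740, 3300 and 2594 CPM against 4501, 4612 and 4173 CPM in DMSO wells (-0.65 ± 0.14, adjusted p = 0.0172). This call was lost without CITCO 20 µM replicate 1 or 3 or DMSO set 1 replicate 1 or 2. With rifampin Apoa1 was lower than DMSO at 20 and 40 µM (-0.94 and -1.15, adjusted p = 0.000342 and 0.000141). Its means were 2878 CPM with CITCO at 20 µM and 2387 and 2113 CPM with rifampin, against 2803 CPM in medium wells. In none of these groups did edgeR call Apoa1 against medium. Cebpa was higher than medium with CITCO at 20 µM, at 44.92, 38.36 and 40.04 CPM, against 19.14, 22.17 and 19.93 CPM in medium wells (1.03 ± 0.13, adjusted p = 1.47e-06). DMSO wells had 31.1 to 35.91 CPM and were themselves called higher than medium. The CITCO wells lay above the DMSO wells, but that difference was not called. BaP gave the highest mean Hnf4a level of set 1, with 344.4, 409 and 473.2 CPM, against 254.9, 245.8 and 275.8 CPM in medium wells (0.64 ± 0.10, adjusted p = 1.51e-05) and 283.6, 332 and 338.1 CPM in DMSO wells (0.30, adjusted p = 0.0558). All BaP wells exceeded all control wells of set 1. The DMSO difference was called with the replicate block (adjusted p = 0.044), with library totals alone (0.0221) and without BaP replicate 1 (0.0136).

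When the 24 groups of set 1 were put in order of their mean, the top group was 3.19 times the bottom one for Apoa1, 3.08 for Cebpa, 2.33 for Serpina1, 2.09 for Alb, 2.04 for Tf, 1.84 for Hnf4a and 1.78 for Ttr. Neighbours in these orders mostly overlapped: of 23 neighbouring pairs, 2 were without overlap for Apoa1, 1 for Cebpa, 1 for Ttr and 0 for the others. NM at 3 mM was the top group for Alb and Apoa1, and NE at 10 mM the bottom group for Alb, Tf and Apoa1 and the top group for Cebpa. In set 2 Serpina1 had the widest range, 4.07 times between DMSO (646.4 ± 30.3 CPM) and 1NP at 0.003 mM (158.8 ± 60.1 CPM).

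Across group means, in which all genes share the same libraries and their depth, Alb and Apoa1 ran together (Pearson r = 0.865 over the 24 groups of set 1 and 0.956 over the 11 groups of set 2). Tf and Serpina1 had r = 0.696 and 0.891. Cebpa was nearly unrelated to Alb (0.125 and 0.182) and Apoa1 (-0.139 and -0.0295), and its r with Hnf4a was 0.659 in set 1 and -0.31 in set 2. Among 7611 probes of at least 10 CPM, those closest to Alb in set 1 were F2 (prothrombin; 0.939, and 0.964 in set 2), Itih3 and Orm1, and F2 was also the closest to Apoa1 (0.869 and 0.879). Closest to Cebpa were Syvn1 (0.913 and 0.761), a ubiquitin ligase of endoplasmic reticulum degradation, Herpud1 (0.908 and 0.831), of the same process, and Rxra (0.907 and 0.58), the partner of several nuclear receptors. Closest to Serpina1 were Apoh, Cp and F9, to Tf Tle3, Epcam and A2m, and to Ttr RGD1308430, Scamp2 and Sod1. For Hnf4a the closest in set 1, Pbld1 (0.889), had r = -0.097 in set 2.

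With NE at 10 mM the other genes of the hepatocyte programme divided. Of 12 probes for surface and metabolic identity genes, 9 were higher than medium and 0 lower (median 1.33, against 0.03 over all probes), and 7 were higher than DMSO. Of all probes 17.2% were called higher and 18% lower than medium, and 14.6% were called higher than DMSO. Tdo2, which opens tryptophan breakdown, rose against medium by 2.23 (adjusted p = 2.3e-08). Of 24 probes for liver transcription factors, 9 were higher than medium and 2 lower. Nr1i2 (PXR), Ppara and Dbp rose, the first to 306 ± 65.4 CPM, against 56.9 ± 8.23 CPM in medium wells (adjusted p = 9e-12, 8.96e-10 and 7.29e-08).

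Carriers outside the set moved both ways in these wells. Of 15 probes for transport and binding proteins 8 were higher and 1 lower than medium: Selenop, the selenium carrier, rose by 1.99 (adjusted p = 1.12e-06), while Orm1, an acute phase glycoprotein, had 479 ± 99.5 CPM in NE wells, against 1220 ± 171 CPM in medium wells (-1.33, adjusted p = 1.8e-06). Of 14 apolipoprotein and lipoprotein assembly probes 3 were higher and 6 lower. Apoe fell to 1350 ± 110 CPM, against 5440 ± 442 CPM in medium wells (adjusted p = 2.87e-12), and Mttp, which loads lipid onto apolipoprotein B, rose by 1.15 (adjusted p = 9.5e-05). Of 11 iron handling probes 7 were higher and 0 lower, among them Fth1, the ferritin heavy chain (1.46, adjusted p = 6.91e-05), and Tfrc, the transferrin receptor (1.46, adjusted p = 2.2e-09), while Tf stood at -0.27 (adjusted p = 0.198). Of 13 serpins and inhibitors 2 were higher and 3 lower, near the shares of 17.2% and 18% over all probes. The counts in this paragraph are against medium. Against DMSO the transport genes Selenop and Azgp1 were higher with NE (1.58 and 0.80, adjusted p = 4.14e-05 and 0.006). Orm1, Ambp and Fetub of the same list were lower than DMSO (-2.02, -1.02 and -0.90, adjusted p = 2.72e-09, 0.000279 and 0.000447).

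Markers of other cells moved with NE at 10 mM as well. Krt19 changed by -2.22, Sox9 by -1.87 and Tagln by -2.56 against medium (adjusted p = 2.86e-10, 2.13e-08 and 2.53e-09). The stellate list summed to 82.7 to 115 CPM in NE wells, against 204 to 254 CPM in DMSO wells and 425 to 825 CPM in medium wells. The cholangiocyte list had 7 probes, 4 of them with a median over all libraries at or under the floor. It summed to 222 to 278 CPM in NE wells, against 541 to 621 CPM in DMSO wells and 627 to 721 CPM in medium wells. Their part in the changes of the hepatocyte genes was not tested.

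NM at 10 mM was lower than DMSO in 8 of 15 transport probes and 7 of 13 serpins and inhibitors (3.47% of all probes were called lower), and higher in Tagln (1.71, adjusted p = 5.21e-06) and Sox9 (1.00, adjusted p = 0.00228). The stellate list summed to 672 to 978 CPM in NM 10 mM wells; its part was not tested. With 1NP at 10 mM 5 of 15 transport probes and 6 of 13 serpins and inhibitors were lower than DMSO (0.888% of all probes), led by Orm1 (-1.81, adjusted p = 1.02e-05) and Itih3, an inhibitor family member that binds hyaluronan (-1.73, adjusted p = 1.02e-05). Against medium 1NP at 10 mM had calls both ways, as NE did. Selenop and Fth1 were higher (1.99 and 1.41, adjusted p = 0.0117 and 0.0099) and Orm1 was lower (-1.08, adjusted p = 0.00533). The 1NP wells varied widely, with Selenop at 739 ± 647 CPM.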

How the data were processed

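TempO-Seq counts were analysed for 35 groups of 3 libraries. The deposited values are raw whole-number counts per probe, per the file headers; the submitters' processing notes name DESeq2 1.28.1 and R 3.5.3 beside Bowtie and FastQC, and the genome build is not given in the sources used here. The authors deposited them without normalization. Groups, sets and plate rows were taken from the labels, and the concentrations of the nitroalkanes are in mM as in the protocol, although the titles read µM. For levels, counts were scaled to a common library total (CPM).

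Differences were tested with edgeR 4.0.16 (R 4.3.3, limma 3.58.1): probes kept at a minimum count of 10 and a total of 15, TMM normalization, robust quasi-likelihood test, Benjamini-Hochberg adjustment over all probes kept, called under 0.05. Fits held 1 nitroalkane with its controls (30 libraries), or the reference compounds of a set (24 or 9). Standard errors are the size of the change divided by the root of F, and intervals are 95% normal ones. Slopes used the 8 concentration ranks without controls. The test was checked on simulated counts. The named genes are all probes of the 8 symbols; of each list of related genes, the 3 called probes with the largest change in each direction and at least 10 CPM could be named; likeness is Pearson's r of log2(CPM + 1) group means. The members and lists were chosen with earlier results of these data known. All wells came from 1 cell lot, so p-values measure the spread between wells. No 2 libraries of a group agreed within sampling noise (smallest chi-square per degree of freedom 2.82). Alternatives were DESeq2 1.42.0, other scalings, no low count filter, other sets of libraries in the fit, a replicate block and leaving out libraries. Total counts ran from 5475419 to 11122665, and a count of 3 was the floor. A formaldehyde control named in the protocol is not analysed here.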

Additional observations from a re-analysis of the deposited data

Results flagged for a closer look

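The effect of 10 mM on Tf differed between 1NP and NM by a test of the difference itself. With DMSO as control the change was -1.19 with 1NP and -0.27 with NM, a difference of -0.92 ± 0.21 (SE; adjusted p = 0.0312, edgeR's quasi-likelihood test over all probes). With medium as control it was -0.23 with 1NP and 0.53 with NM, a difference of -0.76 ± 0.21 (adjusted p = 0.0369). Both calls were lost without the libraries that stood apart (-0.72 with DMSO, adjusted p = 0.484, and -0.56 with medium, adjusted p = 0.552) and without the low count filter (adjusted p = 0.0652 and 0.0819). The compounds were in different sets, so that compound and set cannot be told apart beyond what each set's own controls remove.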

How the results depend on the processing

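Over the results for single genes, size factors by RLE and scaling without the 7 probes moved no call, DESeq2 turned 15 uncalled results into calls and lost 0, and leaving out 1 library at a time (69 fits) kept 319 results, lost 83 calls, gained 25 and reversed 2. The cause of the changes that follow was not tested. Replicate numbers did not in general pair the wells: of 48 comparisons that share numbers, every pair's correlation was over 0.1 in 5, and pair correlations ran from -0.42 to 0.596. With the replicate block the counts of genes called became 1 (0 without it) for NM 10 mM against medium, 2 (1) for WY-14643 set 2 against DMSO and 2 (1) for NE against NM at 3 mM; of single genes it gained 7 calls and lost 1, Cebpa in DMSO against medium of set 2 (adjusted p = 0.0584). No paired analysis was possible for 1NP against its controls because they share no replicate numbers.

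Other counts of genes called moved as follows, with the reported count in parentheses. With only the groups compared in the fit they were 2 (5) for NM 10 mM against DMSO, 0 (3) for NM 3 mM against medium, 4 (2) for 1NP 3 mM and 0 (4) for 1NP 10 mM against DMSO, 1 (0) for CITCO 10 µM and 5 (3) for rifampin 20 µM against DMSO, 4 (1) for WY-14643 set 2 against DMSO, 5 (2) for CITCO 10 µM and 0 (1) for rifampin 40 µM against medium, and 3 (0) and 2 (0) for NE and 1NP at 0.003 to 1 mM against medium. With all libraries in 1 fit they were 3 (5) for NM 10 mM against DMSO, 1 (0) for 1NP 10 mM against medium, 1 (3) and 1 (2) for BaP against DMSO and medium, 0 (1) for CITCO 20 µM against DMSO, 1 (2) for CITCO 10 µM, 0 (1) for rifampin 40 µM and 0 (1) for WY-14643 set 1 against medium, and 1 (0) for NE at 0.003 to 1 mM against medium. Without the low count filter they were 1 (0) for NM 10 mM, 1 (2) for NE 3 mM and 2 (0) for 1NP 10 mM against medium, 5 (3) and 5 (2) for BaP against DMSO and medium, 1 (0) and 4 (2) for CITCO 10 µM against DMSO and medium, 5 (3) for rifampin 20 µM against DMSO, 4 (2) and 4 (1) for rifampin 40 µM against DMSO and medium, 4 (1) for WY-14643 set 2 against DMSO, 2 (0) and 4 (0) for NE and 1NP at 0.003 to 1 mM against medium, and 0 (1) and 0 (1) for 1NP against NM at 10 mM with DMSO and with medium. With DESeq2 they were 1 (0) for NM 10 mM and 2 (0) for 1NP 10 mM against medium, 1 (0) for 1NP at 0.003 to 1 mM against medium, 1 (0) and 4 (2) for CITCO 10 µM against DMSO and medium, 5 (3) for rifampin 20 µM against DMSO, 2 (1) for rifampin 40 µM against medium, 2 (1) for WY-14643 set 2 against DMSO and 1 (0) for 1NP against NE with DMSO. With library totals alone they were 1 (0) for NM 10 mM and 1 (0) for 1NP 10 mM against medium and 2 (1) for WY-14643 set 2 against DMSO. Without the libraries that stood apart they were 4 (2) for NE 3 mM and 1 (0) for NE at 0.003 to 1 mM against medium, 2 (0) and 2 (0) for 1NP against NE and 0 (1) and 0 (1) for 1NP against NM, with DMSO and with medium.

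Leaving out 1 library at a time, counts against DMSO ran from 4 to 5 (NM 10 mM), 5 to 6 (NE 10 mM), 1 to 1 (1NP 3 mM), 4 to 5 (1NP 10 mM), 1 to 3 (BaP; 1 without BaP replicate 3 or DMSO set 1 replicate 1 or 2), 0 to 1 (CITCO 20 µM), 2 to 3 (rifampin 20 µM) and 4 to 5 (WY-14643 set 1), and over 0.003 to 1 mM from 23 to 25 (NM), 14 to 20 (NE) and 12 to 15 (1NP). Counts against medium ran from 2 to 3 (NM 3 mM), 0 to 1 (NM 10 mM; 1 without NM 10 mM replicate 1), 1 to 2 (NE 3 mM; 2 without NE 3 mM replicate 1, where Ttr was gained and Alb lost), 2 to 5 (NE 10 mM), 0 to 2 (1NP 3 mM), 0 to 2 (1NP 10 mM; above 0 without 1NP 10 mM replicate 1 or 2 or medium set 2 replicate 4), 0 to 3 (1NP at 0.003 to 1 mM), 2 to 3 (BaP), 1 to 2 (CITCO 10 µM; 2 only without medium set 1 replicate 2), 2 to 5 (CITCO 20 µM), 0 to 1 (rifampin 40 µM; 0 without its replicate 1 or 3 or medium set 1 replicate 1), 1 to 2 (WY-14643 set 1; 2 without its replicate 3) and 1 to 7 (WY-14643 set 2). DMSO against medium ran from 4 to 5 in set 1 and 4 to 6 in set 2. The sign turned for Cebpa with 1NP 10 mM against DMSO, -0.79 without 1NP 10 mM replicate 3 and -0.79 without all libraries that stood apart, against 0.62, and for Ttr with WY-14643 set 2 against medium, 0.24 without medium set 2 replicate 6, against -0.04. Intervals cover the spread between 3 wells a group, and differences smaller than them were not detectable.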
